A study of Mus musculus with 6 samples.

Results

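Nonclassical (class Ib) MHC class I genes are the less polymorphic relatives of the classical class I genes, and they lie with them on mouse chromosome 17. The 10 members described here were chosen by name as the listed genes of the H2-Q, H2-T and H2-M regions (H2-Q1, H2-Q2, H2-Q4, H2-Q6, H2-Q7, H2-Q10, H2-T10, H2-T22, H2-T23 and H2-M3), out of 43629 genes in the count table. RNA with poly(A) tails was sequenced from 6 keratinocyte cultures, 3 from control mice and 3 from Dnmt1Δ/Δep mice, to ask how loss of the maintenance DNA methyltransferase Dnmt1 affects keratinocytes away from the rest of the skin. Dnmt1Δ/Δep mice carried floxed Dnmt1 alleles and a Cre transgene driven by the keratin 5 promoter, which is active in basal keratinocytes. Control mice carried floxed alleles without Cre, on 1 or both copies, and which of these genotypes each control library had is not given in the sources used here. All mice were of a mixed C57BL/6J and 129SV background, were labelled female, and were 3 days old when the epidermis was taken. The cells were grown for 5 days according to the sample labels, and a shorter time appears elsewhere in the study's description. The MHC haplotype of each mouse is not given, and its part in the values below was not tested.

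Class I molecules pair a heavy chain with beta-2-microglobulin and mostly carry peptides to the cell surface. Classical molecules such as H2-K and H2-D show a broad set of peptides to CD8 T cells, whereas nonclassical molecules have narrower tasks. The H2-T23 product Qa-1 shows signal peptides of other class I chains to inhibitory receptors of natural killer cells, H2-M3 binds peptides that begin with formylmethionine, as bacterial peptides do, and the H2-T10 and H2-T22 products are seen without a peptide by a subset of gamma-delta T cells. H2-Q6 and H2-Q7 belong to the Qa-2 group, which can be held in the membrane by a lipid anchor, and H2-Q4 and H2-Q10 encode secreted forms, H2-Q10 mainly in liver. Transcription of many class I genes is known to depend on a promoter region where interferon regulatory factors, NF-kappaB and the class I transactivator Nlrc5 act.

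In Dnmt1Δ/Δep keratinocytes 5 of the 10 genes were upregulated, and none was downregulated. H2-Q7 rose most, 25.4-fold, followed by H2-M3 with 9.0-fold, H2-T10 with 4.63-fold, and H2-Q6 and H2-Q4 with 2.29-fold and 2.27-fold. H2-Q7 and H2-M3 were also the members with the lowest levels in control cells. H2-T22 was 1.56-fold higher, under the 2-fold threshold, and H2-T23 was 1.19-fold higher and did not pass the test. Throughout, a gene was called upregulated or downregulated where the adjusted p was 0.05 or less and the change 2-fold or more, that is 1 on the log2 scale, and adjusted p-values are from edgeR over all 16829 genes that passed the filter on low counts, including all 10 members.

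Near-identical sequence limits how reads of these genes can be told apart, because the authors counted reads that mapped to 1 place, so a read from a stretch that recurs in another gene could be lost. The stretches below show this for 60 bases in coding exon 2, which encodes the alpha-1 domain of the peptide groove, with capitals marking bases that differ from H2-K1. They were taken from the annotated transcripts (GRCm38, chromosome 17), 5′ to 3′ on the strand of the gene. The pair H2-T10 and H2-T22 is identical over the stretch, while H2-M3 differs from H2-K1 at 13 bases, the highest number among the members shown.
H2-K1 (chr17:33999944-34000003, minus strand): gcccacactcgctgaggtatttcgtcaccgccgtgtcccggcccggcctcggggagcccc
H2-Q6 (chr17:35425108-35425167, plus strand): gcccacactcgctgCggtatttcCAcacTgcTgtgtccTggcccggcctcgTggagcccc
H2-Q7 (chr17:35439452-35439511, plus strand): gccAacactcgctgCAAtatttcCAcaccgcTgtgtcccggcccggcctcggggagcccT
H2-T10 (chr17:36120816-36120875, minus strand): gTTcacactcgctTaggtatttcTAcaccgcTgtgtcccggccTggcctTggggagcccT
H2-T22 (chr17:36042069-36042128, minus strand): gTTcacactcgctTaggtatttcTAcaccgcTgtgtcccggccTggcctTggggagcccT
H2-T23 (chr17:36032363-36032422, minus strand): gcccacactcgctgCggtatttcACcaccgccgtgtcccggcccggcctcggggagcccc
H2-M3 (chr17:37270522-37270581, plus strand): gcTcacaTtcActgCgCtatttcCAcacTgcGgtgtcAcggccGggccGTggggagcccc

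Over whole coding sequences, H2-T10 and H2-T22 were 96.9% identical and H2-Q6 and H2-Q7 95.4%, whereas H2-M3 was 73.2% to 76.3% identical to each other member. The share of each transcript's stretches of 50 bases that occurred in no other gene's annotated transcripts was 99.4% for H2-M3, 91.3% for H2-Q2, 89.0% for H2-Q10, 77.1% for H2-Q1 and 70.2% for H2-T23. It was lower for H2-Q6 (63.2%), H2-Q4 (60.8%), H2-Q7 (59.8%), H2-T10 (57.1%) and H2-T22 (53.6%), against 91.2% for H2-K1 and 85.7% for H2-D1. Of the H2-T10 stretches, 40.2% recurred in H2-T22, and of the H2-Q6 stretches, 30.5% recurred in H2-Q7. With stretches of 100 bases the shares were 78.1% (H2-Q7) to 100% (H2-Q2 and H2-M3). At 50 bases H2-M3 had the largest share of unique sequence among the members, and levels of the H2-Q6 and H2-Q7 pair and of the H2-T10 and H2-T22 pair are uncertain one against the other. The read length is not given in the sources used here, and sequence outside annotated transcripts was not searched.

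**Figure D1:**
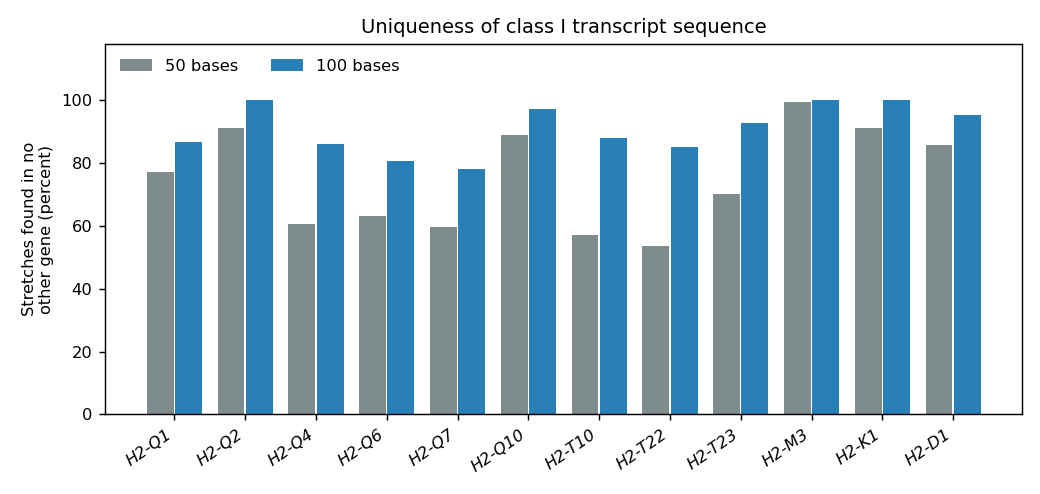
Share of stretches of 50 bases (grey) and 100 bases (blue) of 1 transcript per gene that occur in no other gene's annotated transcripts, in percent, for the 10 nonclassical genes and the classical genes H2-K1 and H2-D1. H2-M3 is nearly wholly unique at 50 bases (99.4%), and H2-T22 is lowest (53.6%).

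Dnmt1 itself, the deleted gene, had 324 to 394 CPM (reads per 1000000 reads counted in genes) in the control libraries and 49.7 to 54.3 CPM in the Dnmt1Δ/Δep libraries, a log2 fold change of -2.83 ± 0.11 (SE, n = 3 per group, adjusted p = 8.1e-05). Between 53433121 and 115526598 reads per library were counted in genes, so that a single read was worth 0.00848 to 0.0186 CPM. CPM values are scaled by TMM factors and are not divided by gene length. Errors given with a fold change are standard errors derived from the edgeR test on 3 libraries per group, which estimates a gene's spread partly from other genes. Those given with a level are standard deviations.

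H2-Q7 (chr17:35439155-35443773, plus strand), of the Qa-2 group, had 0.137, 0.0513 and 0.0745 CPM in control libraries 1 to 3 and 2.13, 1.53 and 3.20 CPM in Dnmt1Δ/Δep libraries 1 to 3. The control values rest on 13, 5 and 4 reads, and the Dnmt1Δ/Δep values on 127, 132 and 377. The groups lay far apart, with the lowest Dnmt1Δ/Δep library over 10 times the highest control library. The log2 fold change was 4.66 ± 0.48 (95% interval 3.54 to 5.79, adjusted p = 0.0018), and the fold is imprecise because of the few control reads. Its near copy H2-Q6 (chr17:35424850-35430055, plus strand) had 5.46, 3.81 and 7.05 CPM in the controls and 10.9, 10.3 and 16.1 CPM in Dnmt1Δ/Δep libraries. The groups did not overlap, and the log2 fold change was 1.20 ± 0.27 (adjusted p = 0.038). H2-Q7 made up 1.61% ± 0.75 of the reads of this pair in the controls and 15.3% ± 2.1 in Dnmt1Δ/Δep libraries (SD, n = 3).

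H2-Q4 (chr17:35379617-35385290, plus strand) had the highest mean level per length of the members, although in the controls its range overlapped that of H2-T22. Its values were 12.4, 10.8 and 13.4 CPM in the controls and 26.5, 23.8 and 32.8 CPM in Dnmt1Δ/Δep libraries, which did not overlap. The log2 fold change was 1.18 ± 0.16 (adjusted p = 0.0052). Of its exon sequence, 19.1% overlaps the annotated gene Gm11131. H2-Q10 (chr17:35470089-35474563, plus strand) had 5.22, 2.42 and 4.63 CPM in the controls and 12.5, 7.15 and 10.03 CPM in Dnmt1Δ/Δep libraries. H2-Q2 (chr17:35342242-35346762, plus strand), whose function is little known, had 2.26, 1.99 and 4.32 CPM in the controls and 6.21, 5.91 and 9.57 CPM in Dnmt1Δ/Δep libraries. For both genes the groups did not overlap, yet neither passed the test, with log2 fold changes of 1.27 ± 0.33 for H2-Q10 (adjusted p = 0.055) and 1.35 ± 0.35 for H2-Q2 (adjusted p = 0.054). With the replicate number as a block, which joins libraries of the same lane, both passed (adjusted p = 0.0080 each).

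H2-Q1 (chr17:35320405-35325099, plus strand) was the member with overlapping groups. It had 0.338, 0.821 and 1.41 CPM in the controls and 0.772, 1.68 and 2.17 CPM in Dnmt1Δ/Δep libraries, so that the lowest Dnmt1Δ/Δep library lay between the control libraries. The log2 fold change of 0.87 ± 0.56 did not pass the test (95% interval -0.45 to 2.19, adjusted p = 0.42). H2-Q1 was nevertheless higher in each of the 3 pairs of same-numbered libraries, by 0.99, 0.95 and 0.58 in log2(CPM + 0.1), and with the replicate block the log2 fold change was 0.93 with an adjusted p of 0.053, short of the threshold.

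In the H2-T region, H2-T10 (chr17:36115876-36121465, minus strand) had 0.677, 0.493 and 1.15 CPM in the controls and 3.30, 2.44 and 4.86 CPM in Dnmt1Δ/Δep libraries. No Dnmt1Δ/Δep library fell as low as the highest control library, and the log2 fold change was 2.21 ± 0.40 (adjusted p = 0.016). The annotation classes H2-T10 as a polymorphic pseudogene, a gene that is intact in some strains only. H2-T22 (chr17:36037128-36042747, minus strand) had 14.1, 16.4 and 17.4 CPM in the controls and 21.9, 23.98 and 28.7 CPM in Dnmt1Δ/Δep libraries. The groups were apart, and its log2 fold change of 0.64 ± 0.15 had an adjusted p of 0.036 but was under the fold threshold (95% interval 0.30 to 0.98). Its adjusted p was above 0.05 in 5 of the 6 fits without a library, all but the fit without control library 1 (0.057 to 0.12 in the 5). H2-T10 made up 4.57% ± 1.65 of the reads of the H2-T10 and H2-T22 pair in the controls and 12.3% ± 2.7 in Dnmt1Δ/Δep libraries (SD, n = 3). Exons of H2-T10 overlap the annotated gene BC023719 over 27.1% of their length, and those of H2-T22 overlap A930015D03Rik over 29.4%.

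H2-T23 (chr17:36029773-36032855, minus strand), which encodes Qa-1, had 9.23, 10.6 and 11.5 CPM in the controls and 13.1, 11.9 and 12.6 CPM in Dnmt1Δ/Δep libraries. The groups stood just apart. The log2 fold change was 0.26 ± 0.14 (adjusted p = 0.32), and its 95% interval of -0.06 to 0.58 excludes a 2-fold rise. As a share of the reads of the 10 members, H2-T23 was 19.9% ± 2.2 in the controls and 12.3% ± 1.7 in Dnmt1Δ/Δep libraries (SD, n = 3). H2-M3 (chr17:37270220-37274484, plus strand) was at the other end, with 0.106, 0.113 and 0.112 CPM in the controls and 1.16, 0.890 and 0.958 CPM in Dnmt1Δ/Δep libraries. These values rest on 10, 11 and 6 reads and on 69, 77 and 113 reads, respectively. With so few control reads, the close agreement of the control values is not a measure of precision. The log2 fold change was 3.17 ± 0.31 (95% interval 2.44 to 3.89, adjusted p = 0.0014), the lowest adjusted p of the members.

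**Figure D2:**
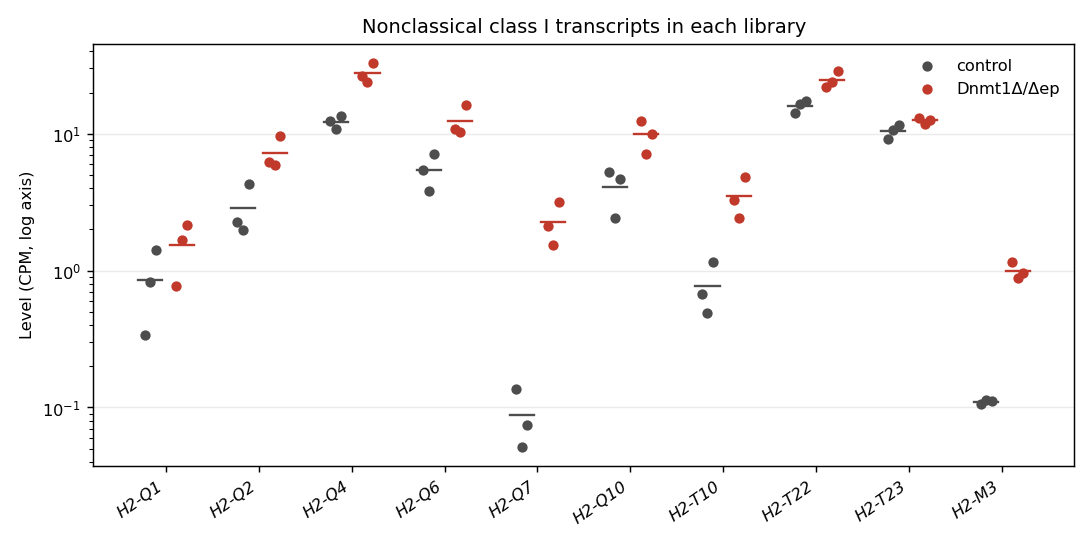
Level of each nonclassical class I gene in CPM (log axis) in the 3 control (grey) and 3 Dnmt1Δ/Δep (red) libraries, in the order of replicates 1 to 3, with lines at the group means. The groups are apart for all genes shown but H2-Q1, widest for H2-Q7 and H2-M3 and narrowest for H2-T23.

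Of the 10 genes, 5 were thus upregulated, where 6.03% of all genes tested were, and 0 were downregulated, where 0.392% were (edgeR). By an unadjusted p under 0.05 and by DESeq2, 0 members were lower as well. By adjusted p alone 6 members were higher, against 7.71% of all genes. In 9 of the 10 the lowest Dnmt1Δ/Δep library was above the highest control library, a pattern found in 18.2% of all genes tested. The median log2 fold change of the members was 1.23, and that of all genes tested was -0.00089. All 10 members were higher in Dnmt1Δ/Δep in each of the 3 pairs of libraries with the same replicate number, a pattern that 27.6% of all genes tested had. The count of 5 became 7 with the replicate block, with the addition of H2-Q2 and H2-Q10, and 6.97% of all genes were upregulated in that fit. It was 3 without control library 2, Dnmt1Δ/Δep library 1 or Dnmt1Δ/Δep library 3, with H2-Q6 and H2-T10 lost each time, whereas H2-Q7, H2-M3 and H2-Q4 stayed called in each of these fits. The share of all genes upregulated was also lower in these fits, at 3.23%, 3.41% and 4.48%, respectively.

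Divided by exon length, as CPM per kilobase of exon (RPKM), the members spanned a wide range of levels. In control cells the order was H2-Q4 (4.70 ± 0.51 RPKM), H2-T22 (4.67 ± 0.49), H2-T23 (3.62 ± 0.40), H2-Q6 (2.61 ± 0.78), H2-Q2 (1.31 ± 0.58), H2-Q10 (0.941 ± 0.340), H2-Q1 (0.300 ± 0.189), H2-T10 (0.227 ± 0.0999), H2-M3 (0.0766 ± 0.0027) and H2-Q7 (0.0206 ± 0.0105) (SD, n = 3). Neighbours in this order did not overlap between H2-T22 and H2-T23, between H2-Q10 and H2-Q1, between H2-T10 and H2-M3 and between H2-M3 and H2-Q7, and all other neighbours did. For H2-M3 and H2-Q7 the control values rest on at most 13 reads per library, so their SDs and their order are uncertain. In Dnmt1Δ/Δep cells H2-Q4 (10.7 ± 1.8 RPKM) and H2-T22 (7.29 ± 1.01) again had the highest means. The range of H2-T22 overlapped that of H2-Q6 (5.96 ± 1.53), which stood above H2-T23 (4.33 ± 0.21). H2-T10 (1.03 ± 0.36), H2-M3 (0.697 ± 0.097), H2-Q1 (0.538 ± 0.248) and H2-Q7 (0.536 ± 0.198) lay at the low end and overlapped neighbour by neighbour. The classical H2-K1 and H2-D1 were higher than every member in both groups, with 21.8 ± 2.2 and 25.4 ± 9.1 RPKM in the controls and 76.9 ± 9.9 and 114 ± 15 RPKM in Dnmt1Δ/Δep cells. Levels per length are not corrected for the unequal share of unique sequence.

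Summed, the 10 members had 52.8 ± 7.2 CPM in the controls and 103 ± 16 CPM in Dnmt1Δ/Δep cells (SD, n = 3), a ratio of 1.95. H2-K1 and H2-D1 together went from 130 ± 29 to 520 ± 67 CPM, a ratio of 4.02. The members' share of the reads of all 12 genes was 32.9%, 22.9% and 32.6% in the controls and 15.5%, 16.7% and 17.3% in Dnmt1Δ/Δep libraries, with no overlap. Within the members, the sum of the 6 H2-Q genes was 25.5 ± 5.5 and 61.0 ± 11.9 CPM, and that of the 3 H2-T genes 27.2 ± 3.0 and 40.9 ± 4.5 CPM, in control and Dnmt1Δ/Δep cells, respectively. These sums are descriptions without a test, and the most abundant members dominate them: H2-Q7 and H2-M3, with the largest folds, made up 0.168% ± 0.093 and 0.211% ± 0.027 of the members' reads in control cells and 2.17% ± 0.47 and 0.988% ± 0.192 in Dnmt1Δ/Δep cells.

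Genes that work with the members in class I presentation were also higher in part. Classical class I genes were upregulated, H2-K1 with a log2 fold change of 1.82 ± 0.13 (adjusted p = 0.00052) and H2-D1 with 2.17 ± 0.26 (adjusted p = 0.0031). Of 9 genes for the light chain and peptide loading, 3 were upregulated and 0 downregulated by edgeR. They were B2m, the light chain (2.15 ± 0.22), Tap2, a subunit of the peptide transporter (1.10 ± 0.20), and Tapbp, the loading factor tapasin (1.02 ± 0.23). Tap1, the other transporter subunit, was higher by 0.76 ± 0.15 (adjusted p = 0.025), under the fold threshold. Tapbpl, a relative of tapasin, was at 23.4, 33.3 and 30.8 CPM in the controls and at 20.3, 22.5 and 22.3 CPM with Dnmt1 deleted, a log2 fold change of -0.43 ± 0.15 that did not pass the test (adjusted p = 0.13). Of 5 immunoproteasome genes, Psmb8 (3.71 ± 0.39, adjusted p = 0.0020) and Psmb9 (2.26 ± 0.34, adjusted p = 0.0077), both for catalytic subunits, were upregulated. Psmb10, also for a catalytic subunit, was not called (-0.10 ± 0.18, adjusted p = 0.81), and neither were the remaining immunoproteasome genes.

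Of 15 regulators of class I transcription, 2 were upregulated and 0 downregulated by edgeR, and 1 was lower at an unadjusted p under 0.05 (Nfyb, a subunit of the CCAAT-binding factor, -0.32 ± 0.11, adjusted p = 0.14). Nlrc5, the class I transactivator, had 0.666, 1.31 and 2.25 CPM in the controls and 33.4, 27.2 and 43.7 CPM in Dnmt1Δ/Δep libraries, a log2 fold change of 4.65 ± 0.44 (adjusted p = 0.0014). Irf1, an interferon-induced activator, had 4.25, 3.86 and 5.57 CPM in the controls and 16.6, 18.3 and 18.4 CPM in Dnmt1Δ/Δep libraries (1.96 ± 0.17, adjusted p = 0.0010). The other class Ib genes and pseudogenes of the same regions numbered 19, of which 5 passed the filter. H2-Bl (2.75 ± 0.29, adjusted p = 0.0018), H2-T24 (1.89 ± 0.38, adjusted p = 0.025) and H2-Q5 (1.88 ± 0.38, adjusted p = 0.023) were upregulated. H2-Q5 shares 20.1% of the 50-base stretches of H2-Q7.

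**Figure D3:**
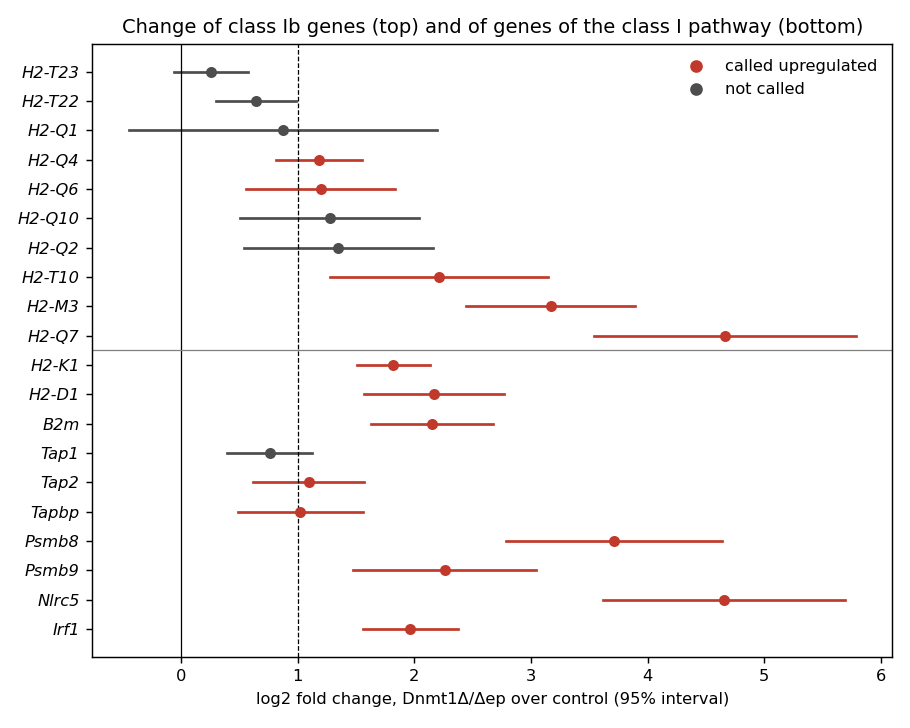
Log2 fold change of Dnmt1Δ/Δep over control (points) with its 95% interval (lines) for the 10 nonclassical genes, sorted by change (top), and for classical class I, light chain, peptide loading, immunoproteasome and regulator genes (bottom), with genes called upregulated in red, those not called in grey, and a dashed line at the threshold of 1. H2-Q7 (4.66) lies close to Nlrc5 (4.65), and H2-T23 (0.26) is the lowest member.

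Class I-like genes that lie outside the MHC were mostly not called, with 2 of 7 tested upregulated and a median log2 fold change of -0.07. These were Mill2, a class I-like molecule (1.45 ± 0.33, adjusted p = 0.038), and Procr, the endothelial protein C receptor (1.54 ± 0.38, adjusted p = 0.047). Of 3 tested ligands of the activating receptor NKG2D, Raet1e (1.99 ± 0.39, adjusted p = 0.023) and Ulbp1 (1.66 ± 0.25, adjusted p = 0.0079) were upregulated. H60c, the third of them and the most abundant, had 48.4, 59.6 and 56.2 CPM in the controls against 30.1, 38.4 and 39.6 CPM with Dnmt1 deleted, with a log2 fold change of -0.60 ± 0.14 (adjusted p = 0.040) that was under the fold threshold. The summed level of the 5 listed ligands was 52.7 to 63.7 CPM in the controls and 45.2 to 58.1 CPM in Dnmt1Δ/Δep libraries, which overlap. Of 9 receptor genes that read class Ib or related molecules on lymphocytes, none passed the filter, and their summed level was at most 0.201 CPM in any library. Of 5 class II genes tested, 0 were called in either direction by edgeR, and 1 had an unadjusted p under 0.05. All 5 had a positive log2 fold change, and in 3 of them the groups did not overlap. The median of 1.82 was the value of H2-Eb1, and H2-DMa (0.02 ± 0.41) and H2-Ab1 (0.16 ± 0.35) had the smallest values. In H2-Eb1 and H2-DMb1, control library 2 lay nearer the Dnmt1Δ/Δep libraries than the other controls did. The gene with the unadjusted p under 0.05 was Cd74, the invariant chain, which had the largest value (3.30 ± 1.19, adjusted p = 0.14), on 0, 0 and 7 reads in the controls and 29, 14 and 43 reads in Dnmt1Δ/Δep libraries.

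Keratinocyte markers were abundant in each library, with a sum of 34398 to 37367 CPM in the controls and 25972 to 26732 CPM in Dnmt1Δ/Δep libraries for 9 markers. None of the 9 was called, and 2, the basal keratins Krt5 and Krt14, were lower by adjusted p alone, with log2 fold changes of -0.50 ± 0.11 and -0.61 ± 0.13. The keratins of differentiating cells had larger differences that did not pass the test. Krt1 had 53.2, 356 and 530 CPM in the controls and 66.1, 59.2 and 65.5 CPM in Dnmt1Δ/Δep libraries (-2.30 ± 0.69, adjusted p = 0.085), and Krt10 had 9.63, 32.1 and 29.7 CPM against 10.6, 7.10 and 6.30 CPM (-1.58 ± 0.44, adjusted p = 0.069). In both, control library 1 lay within or near the Dnmt1Δ/Δep range, so that the groups overlapped. Markers of other cells moved in part with the groups. The sum of 11 leukocyte markers was 52.0 to 64.9 CPM in the controls and 105 to 121 CPM in Dnmt1Δ/Δep libraries, mostly Cd68, a lysosomal protein that is not restricted to leukocytes (0.97 ± 0.12, adjusted p = 0.0041, just under the fold threshold). Csf1r (2.67 ± 0.56, adjusted p = 0.027) and Itgam (2.35 ± 0.58, adjusted p = 0.047), both of macrophages, were upregulated among the 4 markers tested. Among other macrophage and myeloid markers of the list, Adgre1 had 0 reads in the controls and 0, 0 and 1 reads in Dnmt1Δ/Δep libraries, Lyz2 had 1, 0 and 1 against 6, 0 and 2 reads, and Cd14 had a log2 fold change of 0.33 ± 0.23 (adjusted p = 0.48). The pan-leukocyte gene Ptprc had 0, 0 and 2 reads in the controls and 12, 1 and 0 reads in Dnmt1Δ/Δep libraries, and 1 of the 11 markers was at 0 throughout. The 10 lymphocyte markers summed to at most 0.487 CPM, with 4 at 0 in all libraries. Melanocyte markers summed to 204 to 536 CPM in the controls and 646 to 873 CPM in Dnmt1Δ/Δep libraries, with 0 of 5 called. The 3 endothelial markers, all tested, summed to 4.32 to 16.5 CPM and 13.5 to 20.8 CPM, with Pecam1 (1.89 ± 0.28, adjusted p = 0.0075) and Cdh5 (4.11 ± 0.65, adjusted p = 0.0097) upregulated. The other, Kdr, had 13.3, 4.37 and 2.75 CPM in the controls against 6.39, 3.09 and 8.87 CPM in the Dnmt1Δ/Δep libraries (-0.16 ± 0.61, adjusted p = 0.93), and its groups overlapped. Fibroblast markers summed to 12.2 to 28.0 CPM and 12.0 to 58.8 CPM, with 0 of 6 called. The part of these cells, and of the keratinocytes' state, in the members' levels was not tested, and in bulk cultures more cells of a type and more RNA per cell cannot be told apart.

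The promoters of the members carry the elements known from classical class I genes to an unequal degree. RefSeq promoter windows, from 250 bases before to 50 bases after the start site (GRCm38.p6), were matched for 8 of the 10 members, and H2-Q1 and H2-T10 were not matched. The windows of the 2 members with the largest and the 2 with the smallest fold changes among those matched are shown 5′ to 3′ on the strand of the gene, with capitals marking matches, on either strand, to AAGTGAAA (the class I interferon response motif), GAAANNGAAA (an interferon response consensus), the kappaB consensus or CCAAT.
H2-Q7 (chr17:35438905-35439204, plus strand): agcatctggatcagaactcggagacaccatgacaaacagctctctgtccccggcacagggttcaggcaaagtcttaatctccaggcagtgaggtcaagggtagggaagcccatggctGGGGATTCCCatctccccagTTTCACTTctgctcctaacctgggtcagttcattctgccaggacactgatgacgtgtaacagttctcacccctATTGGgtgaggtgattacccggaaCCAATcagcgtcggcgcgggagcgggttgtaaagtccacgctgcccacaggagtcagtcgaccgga
H2-M3 (chr17:37269984-37270283, plus strand): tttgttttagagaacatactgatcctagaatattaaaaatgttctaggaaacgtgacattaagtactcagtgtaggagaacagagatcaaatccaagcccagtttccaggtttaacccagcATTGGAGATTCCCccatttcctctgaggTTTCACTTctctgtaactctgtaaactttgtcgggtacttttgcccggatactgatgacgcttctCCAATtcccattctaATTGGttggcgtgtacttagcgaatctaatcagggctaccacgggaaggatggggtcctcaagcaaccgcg
H2-T22 (chr17:36042693-36042992, minus strand): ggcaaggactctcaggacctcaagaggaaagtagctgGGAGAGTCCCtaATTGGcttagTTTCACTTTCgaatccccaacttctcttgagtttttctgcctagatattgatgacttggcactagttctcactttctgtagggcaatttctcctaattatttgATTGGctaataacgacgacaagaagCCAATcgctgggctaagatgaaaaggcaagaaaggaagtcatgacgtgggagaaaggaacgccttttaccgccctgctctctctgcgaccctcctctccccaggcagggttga
H2-T23 (chr17:36032652-36032951, minus strand): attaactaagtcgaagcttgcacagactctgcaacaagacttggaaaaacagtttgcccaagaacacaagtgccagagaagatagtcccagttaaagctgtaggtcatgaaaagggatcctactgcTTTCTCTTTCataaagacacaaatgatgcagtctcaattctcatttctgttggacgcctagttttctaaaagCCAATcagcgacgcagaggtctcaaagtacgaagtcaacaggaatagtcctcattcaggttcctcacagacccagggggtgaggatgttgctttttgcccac

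AAGTGAAA was in 6 of the 8 member promoters (H2-Q4, H2-Q6, H2-Q7, H2-Q10, H2-T22 and H2-M3) and in those of H2-K1 and H2-D1, against 1.6% of 32817 RefSeq promoter windows of the same length. It began 113 bases before the start site in H2-Q7, 101 in H2-M3 and 104 in H2-K1, and farther upstream, 191 bases before it, in H2-T22. H2-Q2 and H2-T23 lacked these letters in the window. GAAANNGAAA, which overlaps AAGTGAAA in H2-T22, was in H2-T22, H2-T23 and B2m, against 3.43% of promoters. The kappaB consensus was in 5 of the 8 members (H2-Q4, H2-Q6, H2-Q7, H2-T22 and H2-M3) against 8.46% of promoters, and in H2-M3 it overlaps a CCAAT match. CCAAT was in 7 of the 8, all but H2-Q10, against 37.4% of promoters. Of the genes with AAGTGAAA, H2-Q7, H2-M3, H2-Q6 and H2-Q4 were called, and H2-Q10 (log2 fold change 1.27) and H2-T22 (0.64) were not. H2-Q2 (1.35) and H2-T23 (0.26), which lacked it, were not called, and the called H2-T10 (2.21) had no matched window. Whether the motif has a part in the changes was not tested. The motifs were chosen after these sequences and the values had been seen, near copies share their promoter sequence, and a match describes letters and not binding.

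**Figure D4:**
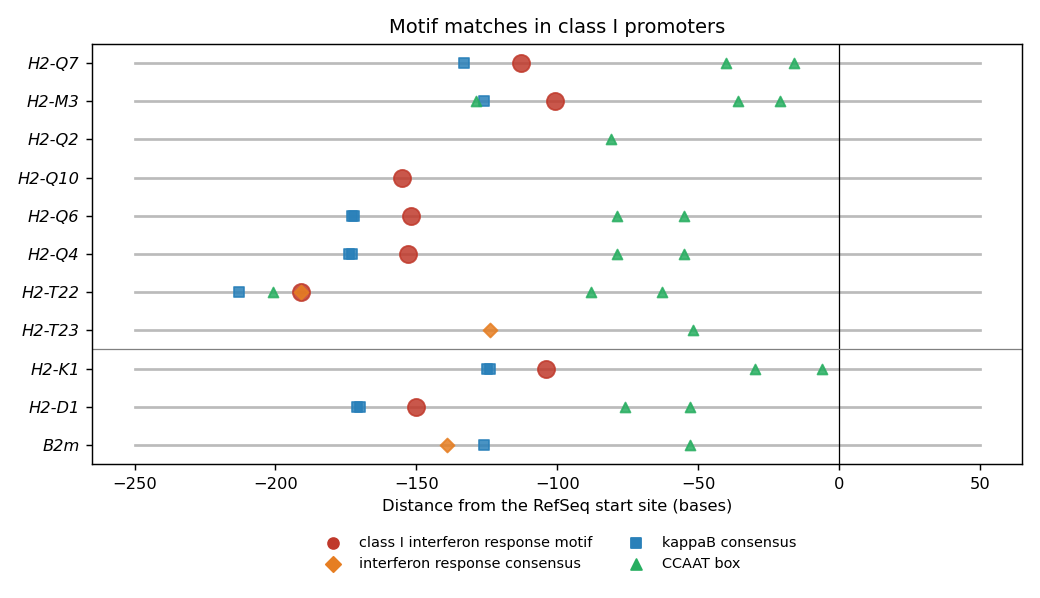
Position of motif matches on either strand, in bases from the RefSeq start site, in the promoters of 8 nonclassical genes in order of falling fold change (top) and of H2-K1, H2-D1 and B2m (bottom), each grey line spanning 250 bases before to 50 bases after the start. The class I interferon response motif (large circles) lies 101 to 191 bases before the start in 6 of the 8 members, and in H2-T22 the interferon response consensus (diamond) covers it.

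Outside the members, the 5 genes whose levels followed the mean profile of the 10 members most closely, out of 12454 candidates with a mean of at least 1 CPM, were H2-K2, 4732490B19Rik, Pear1, Rgs3 and Fetub. Likeness was the root mean square difference in log2(CPM + 1) over the 6 libraries, each gene set against its own control mean, and it was 0.0652 for H2-K2, a class I pseudogene, and 0.0744 to 0.116 for the others. H2-K2 had 2.104, 1.59 and 2.48 CPM in the controls and 4.70, 4.30 and 5.42 CPM in Dnmt1Δ/Δep libraries. Among the members themselves, H2-Q4 was closest to the mean profile (0.128) and H2-T23 (0.520) the farthest from it, followed by H2-Q7 (0.461).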

How the data were processed

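Poly(A) RNA of 3 control and 3 Dnmt1Δ/Δep keratinocyte cultures was analysed. The authors trimmed reads, aligned them with STAR, kept uniquely mapped reads and counted them per gene with HTSeq, and the deposited values are raw counts. The submitters' processing notes name GRCm38, whereas the study's methods name a human index. Deposited repeat counts and tables of the authors' comparisons (fold changes, p-values) were not used. The 5 entries that name no gene were left out, and together they came to 8.73% to 12.9% of the reads listed per library.

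Here edgeR 4.0.16 (R 4.3.3) was run on the whole table (filterByExpr with a minimum count of 10, TMM, glmQLFit, glmQLFTest, Benjamini-Hochberg), without a block. On simulated data with 200 genes changed 4-fold among 16829, edgeR recovered 197 with 7 false calls, and DESeq2 1.42.0 recovered 200 with 37. The changed genes were drawn from those with a mean above 1 CPM, and the libraries were simulated without pairing. Recovery at the lower levels and smaller changes of some members was therefore not tested. Symbols were found for 97.3% of gene IDs. Same-numbered libraries shared a lane per the file headers, and their deviations from the group means correlated (0.46, 0.40 and 0.31), so the numbers pair the samples. The series' design text gives 3 mice per group. Depth was 53433121 to 115526598 reads in genes, and intervals rest only on these libraries. Sequences were taken from GENCODE transcripts and RefSeq promoters. Named genes were all members, Dnmt1, H2-K1, H2-D1, B2m, Tap1, Nlrc5, Irf1, any listed gene that was called, and the 5 genes nearest the members' mean profile, and 1 gene of this rule is not reported here. Outside this rule, H60c, Cd74, H2-Eb1, H2-DMb1, H2-DMa, H2-Ab1, Cd68, Ptprc, Adgre1, Lyz2, Cd14, Kdr, Tapbpl, Psmb10, Nfyb and the keratins were named after their values were seen. Members and lists were chosen with earlier results of these data known. Alternatives were RLE and upper-quartile factors, no filter, DESeq2, the replicate block, adjusted p alone, and leaving out each library.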

Additional observations from a re-analysis of the deposited data

How the results depend on the processing

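The count of 5 upregulated members ranged from 3 to 6 when 1 library was left out. It was 5 with RLE or upper-quartile factors (5.92% and 6.04% of all genes upregulated), 6 by adjusted p alone (7.71%), and 7 with no filter on low counts, with DESeq2 and with the replicate block (4.68%, 6.84% and 6.97%). The count of downregulated members was 0 in each of these fits. H2-Q7, H2-M3 and H2-Q4 were called in all 11 alternatives run on them, as were H2-K1, H2-D1, B2m, Nlrc5 and Irf1. H2-Q6 lost its call in 5 of the 6 fits without a library (log2 fold changes of 0.96 to 1.28, adjusted p = 0.054 to 0.11), and H2-T10 in 3 of them (adjusted p = 0.050 to 0.063). H2-T22, 1 of the 6 by adjusted p alone, was above 0.05 in 5 of them (0.057 to 0.12). H2-Q2 and H2-Q10 gained a call in 4 alternatives each. The replicate block changed no other call among the members and the companion genes tested. No value changed direction. Over all genes, 1014 were upregulated and 66 downregulated, against 559 to 1183 and 15 to 180 without 1 library, and 107 and 122 were downregulated with no filter and with DESeq2. With 3 libraries per group and at most 13 control reads for H2-Q7 and H2-M3, their folds are imprecise. Why calls changed was not tested.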

Other observations

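A pair of class II genes on the same chromosome, named here after their values were seen, set 2 control libraries apart from the other 4. H2-Eb1 had 3, 122 and 6 reads in control libraries 1 to 3 and 82, 125 and 263 reads in Dnmt1Δ/Δep libraries 1 to 3, and H2-DMb1 had 0, 26 and 0 reads in control and 30, 33 and 61 reads in Dnmt1Δ/Δep libraries. Neither was called (edgeR, adjusted p = 0.35 and 0.28). In CPM, control library 2 had 1.25 for H2-Eb1, against 1.38 to 2.23 in the Dnmt1Δ/Δep libraries, and 0.267 for H2-DMb1, against 0.382 to 0.517.

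The pseudogene H2-M6-ps, also named after its values were seen, had 0 reads in all 3 control libraries and 8, 8 and 6 reads in the Dnmt1Δ/Δep libraries, too few for it to be tested.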
